A study of Mus musculus with 2 samples.

Results

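Within the mKO2neg gate of a Fucci mouse bone marrow library, the cells richest in transcripts of the DNA replication genes Mcm2 to Mcm7 and Pcna were set against the cells poorest in them. Of the 192 cells of the series, 48 were mKO2neg, and 43 of these had at least 5000 counts. The 43 cells were ranked by the summed level of Mcm2, Mcm3, Mcm4, Mcm5, Mcm6, Mcm7 and Pcna, as CPM (counts scaled to the same total in every cell), so the members were selected on these measured transcript levels. The 14 highest-ranked cells are called high-Mcm here, the 14 lowest-ranked low-Mcm and the 15 between them middle. All comparisons are between these cells of 1 library, so the values describe these cells and no test was made.

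The cells came from the bone marrow of C57BL/6 mice aged 8 weeks, in a study on the expansion of resting stem cells of the blood. Fucci mice carry an orange protein, mKO2, joined to a fragment of Cdt1, which builds up in G0 and G1, and a green protein, mAG, joined to a fragment of geminin, which builds up in S, G2 and M. One library held 48 mKO2neg and 48 mAG+ cells, and the other held 48 mKO2low and 48 mKO2high cells, all with the reporter and none with a treatment named. The transgenes' promoters, the surface markers of the sort, the number of mice and any gating of mKO2neg cells on mAG are not given in sources used here.

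Before DNA is copied, the origin recognition complex, Cdc6 and Cdt1 load rings of Mcm2 to Mcm7 onto replication origins, a step called licensing. Geminin blocks Cdt1, and in S phase Cdc45 and the GINS complex turn the loaded rings into working helicases. Pcna is the sliding clamp that holds DNA polymerases on the template. In blood stem cells, most of which rest outside the cycle, Mcm transcripts are known to climb as cells leave quiescence. Licensing itself is a state of proteins on chromatin, which RNA counts do not measure, so the cells are named by their transcripts and not as licensed or unlicensed.

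The deposited gene labels are displaced by 1 gene, and each gene was read from the row of the gene just before it in the order of the GENCODE M21 annotation. Read this way, cytosolic ribosomal protein genes held 19.6% of all counts, against 0.167% in the rows under their own labels, and Actb, the gene of beta-actin, held 25599 counts against 136. Counts per cell ran from 9218 to 210516 (median 25790) in high-Mcm cells, from 8086 to 86369 (median 37098) in middle cells and from 10412 to 94399 (median 24633) in low-Mcm cells. Their summed counts were 564082, 573346 and 470467. Genes with a count numbered 2566 to 6769 per high-Mcm cell and 2607 to 5009 per low-Mcm cell. Lmo2, a transcription factor gene of blood stem cells, had counts in all 43 cells. The 2 libraries shared no cell name.

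The ranking separated 5 cells from the rest of the high-Mcm group. The summed level of the 7 genes ran from 656 to 3427 CPM (median 1082) in high-Mcm cells, from 330.0 to 626 in middle cells and from 0 to 296 in low-Mcm cells. The borders of the ranking were narrow, since the last high-Mcm cell had 656 CPM and the first middle cell 626, and the last middle cell had 330.0 and the first low-Mcm cell 296. The 5 highest-ranked cells had a count in all 7 genes and summed levels of 1513 to 3427 CPM. The other 9 high-Mcm cells had counts in 3 or 4 of the 7 genes and at most 1141 CPM. The 5 cells held 66.4% of the high-Mcm counts, and the second-ranked cell alone, with 210516 counts, held 37.3%. Among low-Mcm cells 4 had no count in any of the 7 genes.

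**Figure D1:**
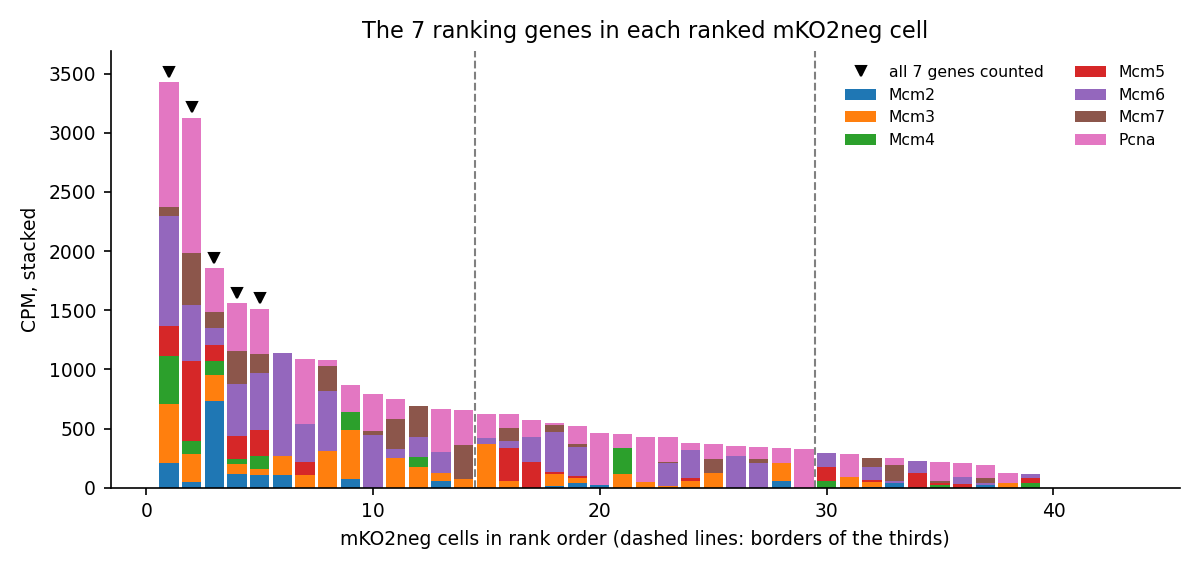
Each bar is 1 of the 43 mKO2neg cells in rank order (x axis), with the CPM of the 7 ranking genes stacked (y axis) and dashed lines between high-Mcm, middle and low-Mcm cells. Black triangles mark the 5 cells with a count in all 7 genes, which stand at 1513 to 3427 CPM, and the next cell stands at 1141.

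At equal depth the 5 cells did not stand apart by this count. After every cell was thinned to 5000 counts, 0 of 14 high-Mcm cells had a count in all 7 genes, which allows a share of up to 23.2% (exact Clopper-Pearson 95% interval, for counting error only). In the unthinned counts, all 7 genes were found in 5 of 43 mKO2neg cells (11.6%, interval 3.89 to 25.1), in 19 of 45 mAG+ cells (42.2%, 27.7 to 57.8), in 7 of 48 mKO2low cells (14.6%, 6.07 to 27.8) and in 0 of 39 mKO2high cells, which allows up to 9.03%. Thinned, these numbers were 0, 5, 1 and 0. The mAG+ cells, from the same library as mKO2neg, were the richest in cells with the whole set.

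The 7 ranking genes are given as a description, since they chose the cells. Pcna (GRCm38 chr2:132249162-132253314, minus strand) had 0 to 1145 CPM per high-Mcm cell (median 337) and 0 to 188 per low-Mcm cell (median 0). Over the summed counts of each group this was 697 against 55.3 CPM, a log2 ratio of high-Mcm over low-Mcm of 3.61. The log2 ratios of the 6 helicase subunit genes were 3.47 for Mcm2 (chr6:88883474-88898780, minus), 3.74 for Mcm3 (chr1:20802968-20820312, minus), 3.77 for Mcm4 (chr16:15623897-15637400, minus), 3.66 for Mcm5 (chr8:75109569-75128439, plus), 3.19 for Mcm6 (chr1:128331590-128359664, minus) and 2.60 for Mcm7 (chr5:138164583-138172422, minus). Ranking the cells by the other 6 genes and reading the gene left out gave 2.59 for Mcm2, 2.21 for Mcm3, 3.05 for Mcm4 and 3.66 for Mcm5. It gave 2.06 for Mcm6, 2.31 for Mcm7 and 1.97 for Pcna. The top cells of these rankings included 11 (for Mcm7) to 14 (for Mcm5) of the 14 high-Mcm cells. These values therefore describe largely the same cells, and for Mcm5 exactly the same. Without the 5 cells that held all 7 genes, Mcm5 turned to -1.67, since 178 of its 179 high-Mcm counts lay in them and 143 in the second-ranked cell alone.

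Promoters of the ranking genes are shown because the genes move together by construction and their starts hold letters known from E2F binding sites. E2F factors are the transcription factors that turn on replication genes at the G1 to S passage. Windows from 250 bases before to 50 after each start (RefSeq, GRCm38.p6) were searched on both strands for TTTCGCGC and TTTGGCGC, which can overlap one another, and the matches are in capitals. Mcm5 had 2 matches upstream of its start and Mcm6 had 3, of which 2 overlap in each gene. Mcm3 and Mcm7 had 1 each, shortly after the start, while the window of another listed start of Mcm7 (chr5:138171217-138171516) had none. The sequences read 5′ to 3′ on the gene's strand, 250 bases up to the start for Mcm5 (chr8:75109259-75109508, plus) and Mcm6 (chr1:128359706-128359955, minus) and 30 bases around the match for Mcm3 (chr1:20820263-20820292, minus) and Mcm7 (chr5:138171849-138171878, minus).
Mcm5: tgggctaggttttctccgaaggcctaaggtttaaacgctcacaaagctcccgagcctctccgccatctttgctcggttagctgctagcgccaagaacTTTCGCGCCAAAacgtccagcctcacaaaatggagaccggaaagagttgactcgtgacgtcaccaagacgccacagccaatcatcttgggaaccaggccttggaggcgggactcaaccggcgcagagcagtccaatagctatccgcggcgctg
Mcm6: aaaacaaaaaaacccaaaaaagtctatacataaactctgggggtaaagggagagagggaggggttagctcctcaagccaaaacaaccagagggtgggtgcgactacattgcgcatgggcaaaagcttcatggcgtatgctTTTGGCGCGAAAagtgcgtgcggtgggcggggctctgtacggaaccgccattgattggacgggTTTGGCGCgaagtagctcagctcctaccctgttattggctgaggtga
Mcm3: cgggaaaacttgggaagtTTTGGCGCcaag
Mcm7: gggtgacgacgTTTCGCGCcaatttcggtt
Such letters stood in the promoters of 4 of the 6 ranking genes in the table and of 251 of all 27025 genes (0.929%). Mcm2 and Pcna had no match in this window, and Mcm4 was not in the table. Of the other listed licensing and fork genes, 11 of 60 had a match (18.3%). Among measured genes the share was 3.29% of those at least 2-fold higher in high-Mcm cells, 1.38% of those at least 2-fold lower and 2.11% of all. The letters CCAAT, known from promoters of G2 and mitosis genes, were found in 6 of the 6 ranking genes, in 43 of 61 listed G2 and mitosis genes (70.5%) and in 41.1% of all genes. A match is a description of the letters and not a bound site.

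Outside the ranking, 8508 genes had at least 10 counts over high-Mcm and low-Mcm cells together and are called measured. Of these, 1872 (22.0%) were at least 2-fold higher in high-Mcm cells and 2153 (25.3%) at least 2-fold lower, and the median log2 ratio was -0.11. These shares are the background for every list below. A gene seldom counted in low-Mcm cells is measured only if it is counted in high-Mcm cells, so a list's count over its measured members leans toward the side where they are high. The 95% intervals of ratios cover counting error only. Scaling by TMM factors, which guard against a few abundant genes, moved the median of all measured genes from -0.11 to 0.01, so a list's ratio is read against the median of all genes.

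Genes that load and fire the helicase were mostly higher in high-Mcm cells, and their summed level separated the 5 cells with the whole ranking set from the low-Mcm cells. It was 752 to 1529.6 CPM in the 5 cells, 72.9 to 549 in the other 9 high-Mcm cells and 0 to 672 in low-Mcm cells. Middle cells had 0 to 982 CPM, so they overlapped the 5 cells. Of 23 listed genes, 16 were measured, 13 at least 2-fold higher and 1 lower. The median of their log2 ratios was 2.81, or 1.98 with genes at 0 in low-Mcm cells placed at their bound. Cdt1, the loading factor, had counts in 5 of 14 high-Mcm cells, where it reached 589.9 CPM, and in 1 low-Mcm cell at 20.0 CPM. The middle cell with 982 CPM of the list had Cdt1 at 196 CPM. All 48 of its high-Mcm counts lay in the 5 cells, and its log2 ratio was 4.42 (interval 2.78 to 10.66). Its inhibitor gene Gmnn showed the same layout, with 114 counts in 4 high-Mcm cells, all of them among the 5, 4 counts in 2 low-Mcm cells and a ratio of 4.29 (3.18 to 6.47).

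The helicase activators were as concentrated. Cdc45 had 58 counts in 4 high-Mcm cells and 3 in 2 low-Mcm cells, a log2 ratio of 3.66 (2.39 to 6.33). Gins2, a GINS subunit, had 43 counts in 6 high-Mcm cells and none in middle or low-Mcm cells, at least 12.0-fold higher when the low-Mcm level is placed at 3 counts over the group. Orc6, of the origin recognition complex, had 57 counts in 4 high-Mcm cells against 3 in 2, all high-Mcm counts again lying in the 5 cells. Other subunits of the complex differed from it: Orc2 stood at -1.45 with 5 against 13 counts, and Orc4 at 1.02 with 23 against 9. Mcmbp, whose product binds Mcm subunits, stood at 1.81 with all cells and 1.68 without the 5. Over the same 16 genes the median was -0.15 without the 5 cells, when 6 were at least 2-fold higher and 5 lower. Of all 8508 genes 18.2% were then higher and 28.2% lower, with a median of -0.16. With every cell weighing alike the licensing median was 1.87.

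Replication fork genes outside the ranking, the polymerases, clamp loader and their helpers, were higher in high-Mcm cells in most cases. Of 53 listed, 48 were measured, 39 at least 2-fold higher and 1 lower, and the median was 2.45 (2.18 with genes at 0 at their bound). The summed level of these genes was 4025 to 12963 CPM in the 5 cells with all ranking genes, 1376 to 3204 in the other 9 high-Mcm cells and at most 2958 in a low-Mcm cell. Each of the 5 cells lay above every low-Mcm cell and 1 of the other 9 did. Without the 5 cells the median over the same genes was 0.09, 13 genes being at least 2-fold higher and 8 lower. Of the licensing and fork genes that still had 10 counts without the 5 cells, 13 of 36 were higher and 7 lower, beside 16.6% and 27.7% of all genes that did. With every cell weighing alike, 40 of the 64 licensing and fork genes were at least 2-fold higher and 4 lower, beside 19.7% and 20.5% of all genes. Without the deepest cell of each group 36 of 53 were higher and 2 lower, beside 21.2% and 21.4%. At equal depth 9 of the 13 still measured were higher and 0 lower, beside 13.1% and 15.1%, and of the 38 with at least 50 counts 32 were higher and 1 lower, beside 17.9% and 16.0%.

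Among the polymerases, Pola1, the catalytic subunit that starts each strand, had 0 to 225 CPM in high-Mcm cells (median 0) and up to 72.2 in low-Mcm cells, with a log2 ratio of 3.95 (2.54 to 7.55). Its partner Pola2 had counts in 8 high-Mcm and 2 low-Mcm cells and a ratio of 4.01 (2.97 to 5.89). Pold1, the catalytic subunit of polymerase delta, had 30 counts in 6 high-Mcm cells and none in low-Mcm cells. The polymerase epsilon genes were split, with Pole2 at 30 against 0 counts, Pole at 0.64 and the small subunit Pole3 at -0.68.

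Rfc5, of the clamp loader that opens Pcna rings, kept a ratio above 2-fold without the 5 cells. It had 0 to 485 CPM in high-Mcm cells (median 69.8, a count in 9 of 14) and counts in 1 low-Mcm cell, at 246 CPM. Its ratio was 4.37 (3.34 to 6.24) and 2.76 without the 5 cells. Rfc3, of the same loader, stood at 2.53 and 1.24. The single-strand binding genes Rpa1 and Rpa2 stood at 3.06 and 3.99, and at 2.64 and 1.75 without the 5 cells, so both stayed on the high side in the other 9.

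Other fork genes had most of their high-Mcm counts in the 5 cells. Tipin, of the complex that steadies moving forks, had 250 of its 250 high-Mcm counts in them, 198 in the second-ranked cell alone, and 1 count in low-Mcm cells, for a ratio of 6.78 (5.21 to 13.01). Uhrf1, which carries DNA methylation through replication, had 148 counts in 5 high-Mcm cells and none in low-Mcm cells, at least 41.1-fold higher, with 137 counts in the second-ranked cell. Hells, a chromatin remodeller, had 109 counts in 4 of the 5 cells and none in low-Mcm cells, at least 30.3-fold higher. Lig1, the ligase that joins Okazaki fragments, had 193 of 200 counts in the 5 cells and a ratio of 3.40, or 0.20 without them. Outside the group single middle cells reached 792 CPM of Lig1, 533 of Tipin and 209 of Hells. Supt16, a subunit of the FACT histone chaperone, was the 1 listed fork gene at least 2-fold lower, at -1.09 (-1.80 to -0.46), while Ssrp1, the other FACT subunit, stood at 1.73 (1.33 to 2.19).

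**Figure D2:**
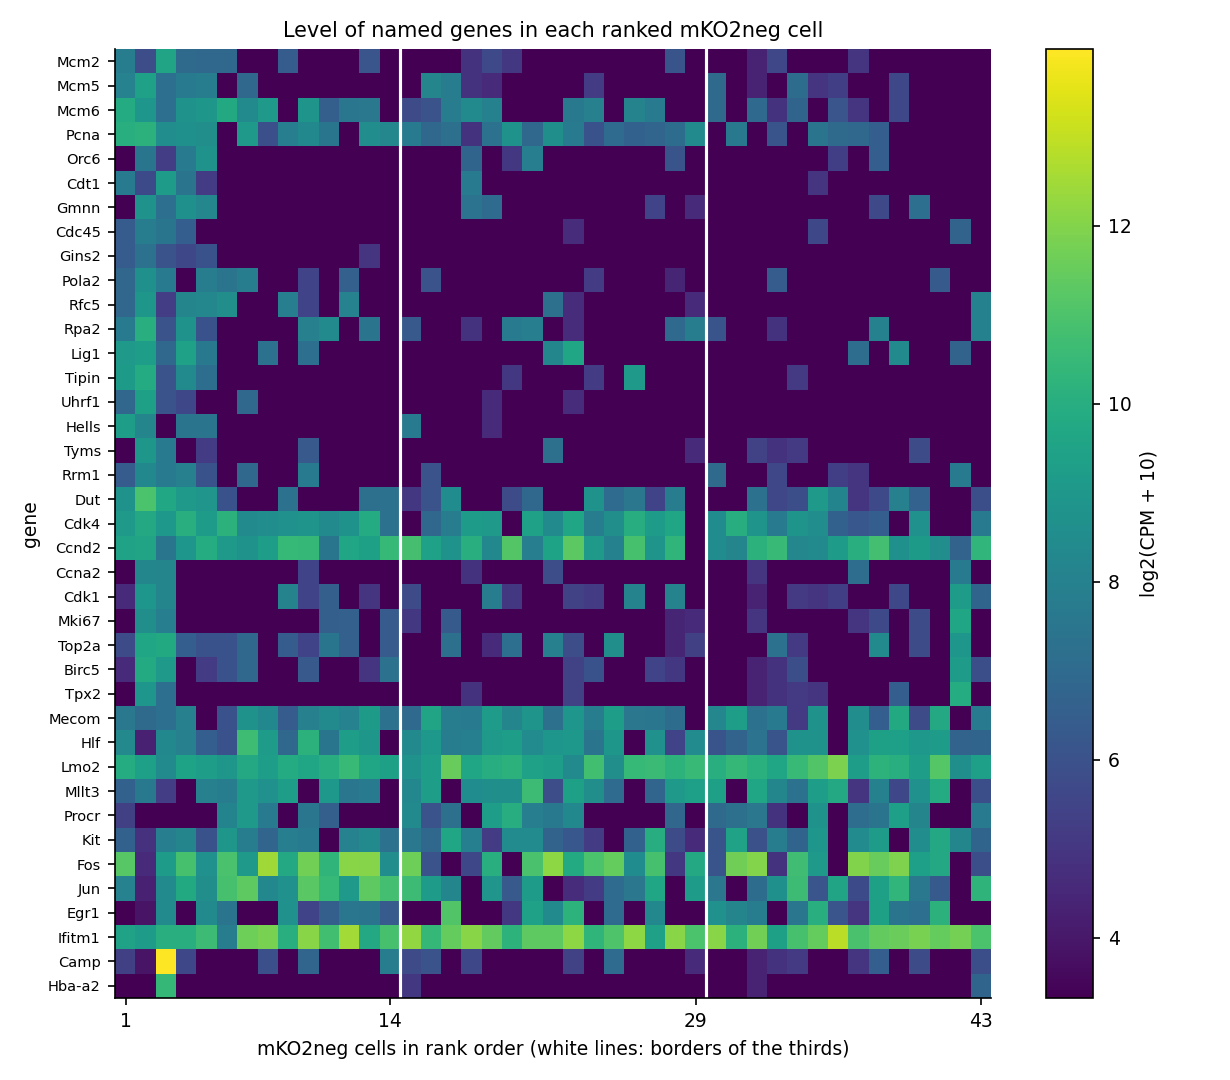
Level of named genes (rows) in each of the 43 mKO2neg cells in rank order (x axis), as log2(CPM + 10), with white lines between high-Mcm, middle and low-Mcm cells. Cdt1 and Tipin have a count in each of the first 5 columns, and Gmnn, Hells and Uhrf1 in 4 of them, and these genes are dark in most other columns, while Lmo2 and Ifitm1 have counts in all 43 cells.

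Genes of nucleotide synthesis were higher in high-Mcm cells on balance, with a smaller median. Of 35 listed, 32 were measured, 18 at least 2-fold higher and 2 lower, and the median was 1.09. Over the same genes it was 0.02 without the 5 cells, when 8 were at least 2-fold higher and 5 lower, and 0.70 with every cell weighing alike. Dut, which keeps uracil out of DNA, had 0 to 1981 CPM in high-Mcm cells (median 144) and 0 to 539.8 in low-Mcm cells (median 45.1). The groups overlapped, and 417 of its 519 high-Mcm counts lay in the second-ranked cell, so its ratio of 2.72 became 1.07 without the deepest cell of each group. Tyms and Tk1, which make thymidine nucleotides, stood at 3.78 and 3.56, and 103 of 113 and 130 of 153 high-Mcm counts lay in that cell. The ribonucleotide reductase genes Rrm1 and Rrm2 stood at 3.11 and 2.01. Without the 5 cells Dut, Tk1 and Rrm2 turned to the low side, with the values listed in the closing paragraph. Paics, of purine synthesis, was spread over more cells, with counts in 12 high-Mcm and 10 low-Mcm cells, 282 against 132 CPM and a ratio of 1.09 (0.66 to 1.54), or 1.17 without the 5 cells. Ctps, which makes CTP, stood at 3.33 and 3.22 without the 5 cells. Among the remaining high-Mcm cells only those of ranks 6 and 13 had counts of Ctps, at 380 and 183 CPM.

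Cdk4, the kinase that drives cells through G1, was higher in high-Mcm cells with and without the 5 cells. It had 146 to 1141 CPM in high-Mcm cells (median 476), all 14 with a count, 0 to 977 in middle cells (median 371) and 0 to 989 in low-Mcm cells (median 194, 11 of 14 with a count). The ranges overlapped, and the log2 ratio was 1.26 (0.98 to 1.55), 1.02 without the 5 cells and 1.39 at equal depth. Its cyclin partner gene Ccnd2 had counts in all 28 cells of both groups and a ratio of -0.14 (-0.35 to 0.06). Of 22 listed cyclins and cyclin-dependent kinases, 20 were measured, 12 at least 2-fold higher and 2 lower, with a median of 1.34 and, over the same genes without the 5 cells, -0.14.

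Among the E2F factors and pocket proteins, 12 of 19 listed genes were measured, 6 at least 2-fold higher and 2 lower, with a median of 1.08. It was -0.14 with every cell weighing alike and -0.21 without the 5 cells, when 2 were higher and 4 lower. Tfdp1, the partner of E2F factors, stood at 1.58 with 88 against 24 counts, and E2f4, a repressor of the family, at -0.73 with 27 against 38. E2f1 was below the filter. The cyclin-dependent kinase inhibitors, which hold cells in G1, showed no common side: 5 of 7 were measured, with a median of -0.05, or 0.08 with TMM scaling. Cdkn1c, the inhibitor known for keeping blood stem cells at rest, stood at 1.26, but 80 of its 99 high-Mcm counts lay in the second-ranked cell, and it was at -0.40 without the deepest cell of each group. Counts of Cdkn1c were found in 5 high-Mcm and 8 low-Mcm cells.

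Genes of G2 and mitosis were higher in the summed counts, and 3 cells held by far their highest levels. Of 73 listed genes, 54 were measured, 37 at least 2-fold higher and 3 lower, with a median of 1.86. The summed level was 11928 CPM in the second-ranked cell and 13147 in the third-ranked, 1094 to 2274 in the 9 high-Mcm cells without all ranking genes and 28525 in 1 low-Mcm cell of 10412 counts, which had no count in any of the 7 ranking genes. The other 13 low-Mcm cells had at most 1868 CPM. With every cell weighing alike the median over the same genes was 0.07, and without the 5 cells -0.23. With the 1 low-Mcm cell left out it was 2.89, over 52 genes.

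Single mitosis genes show the same few cells. Birc5, of the chromosomal passenger complex, had 218 high-Mcm counts, 190 of them in the second-ranked cell, and 11 low-Mcm counts, 6 of them in the low-Mcm cell just described. Aurkb, the kinase of that complex, had 101 against 1 counts with 93 in the second-ranked cell. Tpx2, a spindle assembly factor, had 104 counts in 2 high-Mcm cells and 16 in 6 low-Mcm cells, and its log2 ratio of 2.37 was -0.84 when every cell weighed alike. Mki67, the proliferation antigen, went from 2.47 to -0.08. Cenpf and Ccnb2, late genes of the cycle, had 17 of 26 and 24 of 52 low-Mcm counts in the 1 low-Mcm cell and ratios of -1.30 and 0.47.

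**Figure D3:**
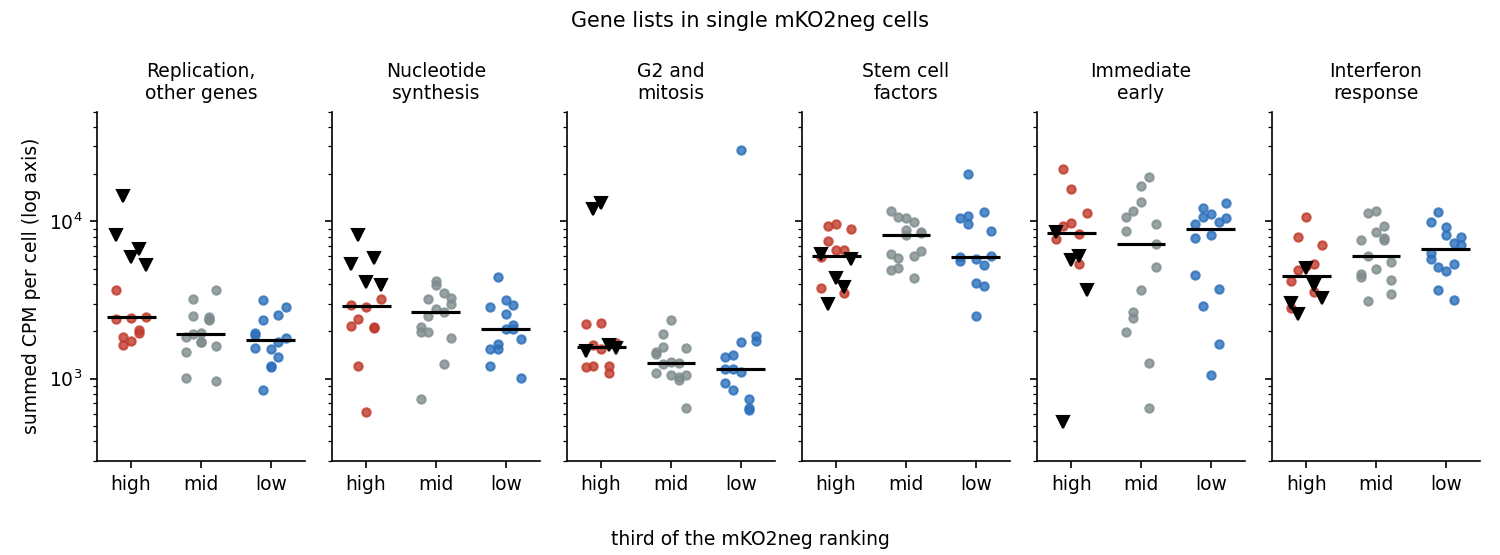
Summed CPM (log axis) of 6 gene lists in each high-Mcm, middle (mid) and low-Mcm mKO2neg cell, with a line at the median and black triangles for the 5 cells with a count in all 7 ranking genes. The 5 triangles lie above all other cells for replication genes outside the ranking, 2 of them and 1 low-Mcm cell stand apart for G2 and mitosis, and the 3 groups overlap for the remaining lists.

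Chromatin and tubulin genes that dividing cells need in bulk were higher in the summed counts. Of 24 listed genes, 23 were measured, 12 at least 2-fold higher and 0 lower, with a median of 1.00. Over the same genes the median was 0.05 without the 5 cells, when 1 was higher and 4 lower, and 0.52 with every cell weighing alike, when 4 were higher. Tuba1b, an alpha-tubulin, had 51.4 to 3610.2 CPM in high-Mcm cells (median 415) and 40.0 to 650.1 in low-Mcm cells (median 186), a log2 ratio of 3.11 (2.82 to 3.43), or 0.94 without the 5 cells. Its reads can be shared with near-identical tubulin genes, so the gene's own level is uncertain. H2afx, the histone variant that marks DNA breaks, had counts in 12 high-Mcm and 7 low-Mcm cells and stood at 3.25, or 1.71 without the 5 cells. Stmn1, which destabilises microtubules, stood at 1.82 and 0.05 without them. H3f3b, a replication-independent histone gene, was lower in high-Mcm cells, at 3471 against 5346 CPM and a ratio of -0.62 (-0.71 to -0.54). Replication-dependent histone genes, whose transcripts mostly lack the poly(A) tail that this method primes on, showed no common side: 14 of 67 were measured, 6 at least 2-fold higher and 5 lower.

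Genes of protein synthesis and nuclear genes of respiration were near equal in both groups. The 79 measured ribosomal protein genes had a median of 0.06, with none past 2-fold, and 28 translation factor genes a median of 0.01. Of 61 nuclear genes of the respiratory chain, 6 were at least 2-fold higher and 1 lower, with a median of 0.16. The 8 measured mitochondrially encoded genes had a median of -0.42, or -0.37 without the 5 cells, beside -0.11 and -0.16 for all genes. Of 35 ribosome biogenesis genes 8 were at least 2-fold higher and 7 lower, near the 22.0% and 25.3% of all genes. Myc, their best-known driver, stood at 0.71 (0.35 to 1.09). Eif6, which keeps ribosomal subunits apart, had the largest ratio of the 28 translation factor genes. It had 0 to 584 CPM in high-Mcm cells (median 369, a count in 13 of 14), 0 to 1425 in middle cells (median 179) and 0 to 689 in low-Mcm cells (median 0, 4 of 14). Its ratio was 2.64 (2.09 to 3.31), 2.58 without the 5 cells and 1.87 with every cell weighing alike. In summed counts the middle cells stood at 372 CPM and the high-Mcm cells at 367, while the medians were 179 and 369.

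A rule across all measured genes named the 15 largest ratios in each direction among genes counted in at least 7 of 14 cells of the higher group, with no cell holding over 25% of the group's summed per-cell CPM. The direction also had to hold when every cell weighed alike, and predicted genes were left out. On the high side these were Tbrg4, Rfc5, Hps1, Hdac8, Trim6, Fam111a, Siva1, Pigc, Spout1, Nup85, Csrp2, Tap2, Nenf, Eif6 and Rangap1. Tbrg4, a mitochondrial RNA regulator, had 64 counts in 7 high-Mcm cells and none in low-Mcm cells, at least 17.8-fold higher, with 40 of them in the second-ranked cell. Fam111a, a protease that acts with Pcna at blocked forks, had 0 to 627 CPM in high-Mcm cells and up to 138 in low-Mcm cells, at 3.29 and 1.32 without the 5 cells. Siva1, a pro-apoptotic gene, had counts in 11 high-Mcm and 5 low-Mcm cells and stood at 3.21. Nup85 and Rangap1 belong to the nuclear pore and its transport cycle, at 2.87 and 2.63. Tap2, a peptide transporter for class I antigen display, and Nenf, a secreted factor, held their ratios without the 5 cells, from 2.71 to 2.38 and from 2.67 to 2.75. Without the 5 cells the 15 genes, of which Hps1 then had under 10 counts, lay between 1.06 for Csrp2 and 4.33 for Tbrg4. The rule chose these genes for their large ratios in the same cells, so their staying on the high side was no separate check. Middle cells had 95.9 CPM of Tap2, beside 94.0 in high-Mcm and 12.8 in low-Mcm cells.

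On the low side the rule named Phyh, Tprgl, Bad, Tex264, Fyttd1, Chmp5, Rcn3, Pheta2, Tbc1d15, Abt1, Pik3ip1, Naxe, Armc1, Synj2bp and Akap8l. Phyh, a peroxisomal enzyme, had 0 to 103 CPM in high-Mcm cells (a count in 3 of 14) and 0 to 433 in low-Mcm cells (median 119.9), with a log2 ratio of -3.89 (-5.60 to -2.94). Bad, a promoter of apoptosis, had 7 counts in 2 high-Mcm and 75 in 8 low-Mcm cells, a ratio of -3.49. Pik3ip1, an inhibitor of PI3 kinase, had 0 to 380.2 CPM in high-Mcm cells (median 40.0), 53.9 to 1471 in middle cells (median 287) and 0 to 859.6 in low-Mcm cells (median 151). Its ratio was -2.25 (-2.88 to -1.72) and -1.34 without the 5 cells. All 15 stayed below 0 without the 5 cells, between -5.74 for Bad and -1.04 for Abt1. These genes too were chosen for their ratios in the same cells, and the low-Mcm cells were unchanged, so this was no separate check.

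Stem cell transcription factor genes had a median below that of all genes, but a share of at least 2-fold lower genes near the background. Of 36 listed, 34 were measured, 10 at least 2-fold lower and 1 higher, with a median of -0.67, and the lower genes were 29.4% of the list beside 25.3% of all genes. The summed level was 2978 to 9610.0 CPM in high-Mcm cells (median 6038) and 2497 to 19986 in low-Mcm cells (median 5956), so the cells overlapped throughout. Lmo2 had 337 to 1462 CPM in high-Mcm cells (median 738) and 384 to 3797 in low-Mcm cells (median 1077), a ratio of -0.91 (-1.09 to -0.72) and -0.73 without the 5 cells. Mllt3, which maintains human blood stem cells in culture, stood at -1.11 (-1.47 to -0.77) and -0.61. Hlf and Mecom, marker genes of dormant stem cells, stood at -0.19 and -0.49, and at 0.85 and 0.19 without the 5 cells. Meis1 and Erg, also stem cell factors, were on the other side, at 0.56 (0.25 to 0.88) and 0.84 (0.26 to 1.49), and at -0.10 and 0.13 at equal depth. Without the 5 cells the list's median over the same genes was -0.23, beside -0.16 for all genes.

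Surface genes of stem and progenitor cells were lower in the summed counts on balance. Of 30 listed, 25 were measured, 9 at least 2-fold lower and 3 higher, beside 25.3% and 22.0% of all genes. Their median was -0.76 in summed counts and -0.10 with every cell weighing alike. Without the 5 cells 6 were lower and 3 higher, beside 28.2% and 18.2% of all genes. The median over the same genes was then -0.32, beside -0.16 for all genes. Procr, which marks the most potent stem cells, had 2 of its 22 high-Mcm counts in the 5 cells and a ratio of -2.07 (-2.88 to -1.43), or -0.67 without them. Cd34 and Kit, progenitor markers, went from -1.61 to -0.56 and from -0.91 to -0.01, while Itga2b, an integrin of stem cells and platelets, was higher, at 1.56 (0.57 to 2.90).

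Genes of cell upkeep mostly had medians near that of all genes. Proteasome genes had 3 of 31 at least 2-fold higher and 0 lower (median 0.09), glycolysis genes 1 of 18 higher and 3 lower (0.11) and chaperone genes 1 of 23 higher and 1 lower (0.20). Antioxidant genes had a median of 0.18, with Cat and Sod2, which remove peroxide and superoxide, at -1.27 and -1.36 and Txnrd1, which recycles thioredoxin, at 1.44. Autophagy and lysosome genes had 5 of 22 at least 2-fold lower, 3 higher and a median of -0.53, a share of lower genes below the 25.3% of all genes. Gabarapl1, a coat protein of autophagosomes, had 102 against 259 counts and stood at -1.60, or -1.44 without the 5 cells, while Atg7, the enzyme that activates such proteins, had 82 against 11 and stood at 2.54. Of the p53 pathway genes, 9 of 22 were measured, with Sesn1 and Mdm2 at -1.53 and -1.20 and Bax, a promoter of cell death, at 1.17. Sterol and fatty acid genes had 4 of 16 at least 2-fold higher and 5 lower, beside 22.0% and 25.3% of all genes.

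**Figure D4:**
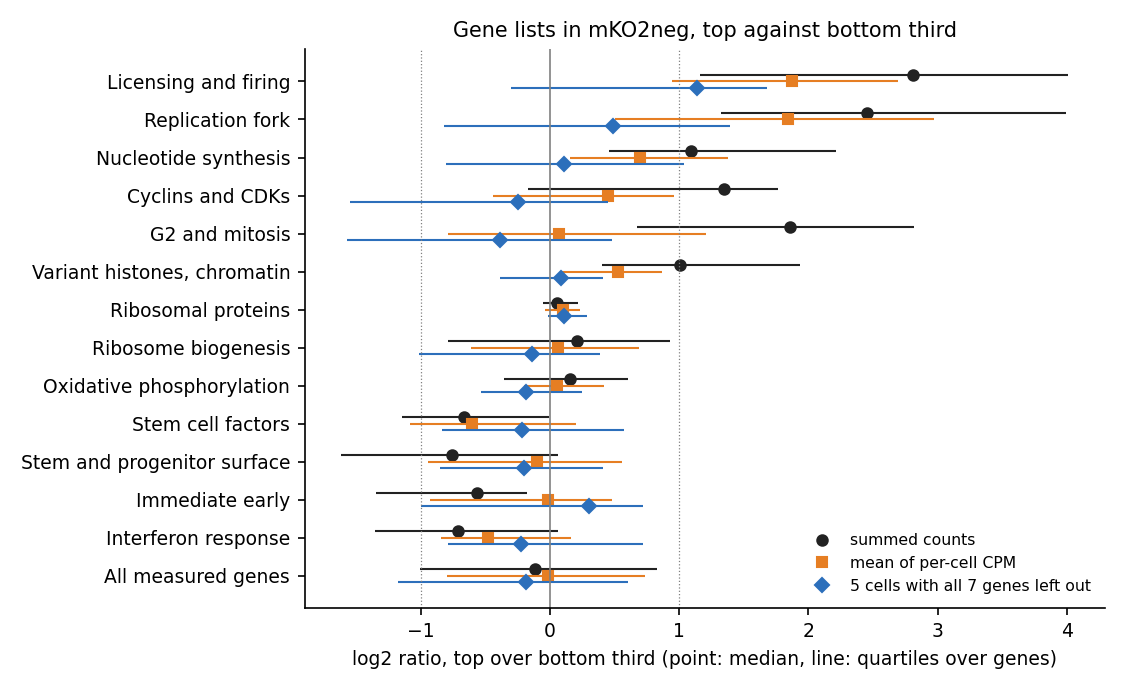
Median log2 ratio, high-Mcm over low-Mcm, of 14 gene sets (rows) with quartiles over genes as lines, from summed counts, from the mean of per-cell CPM and from summed counts without the 5 cells that held all ranking genes. Without the 5 cells fewer genes reach 10 counts, so the blue points cover fewer genes. Licensing and fork genes lie right of the other sets in summed counts, at 2.81 and 2.45, and G2 and mitosis genes fall from 1.86 to 0.07 with equal weights.

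Immediate early genes, which respond within minutes to signals and to cell handling, varied widely among cells. Their summed level was 527 to 21504 CPM in high-Mcm cells (median 8429.9) and 1056 to 13046 in low-Mcm cells (median 8922). The lowest of the high-Mcm cells was the second-ranked cell. Of 21 measured genes none was at least 2-fold higher and 8 were lower in summed counts, with a median of -0.56, and the median over the same genes was 0.30 without the 5 cells. Jun, a subunit of AP-1, stood at 0.65 with all cells and 1.95 without the 5, while Fos, its partner, went from -0.50 to 0.54. Egr1 stayed lower, at -1.62 and -0.99.

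Interferon response genes had a median of -0.71 in summed counts, beside -0.11 for all genes. Of 24 measured genes 8 were at least 2-fold lower and 2 higher, beside 25.3% and 22.0% of all genes. Without the 5 cells the median over the same genes was -0.30, beside -0.16 for all genes. Then 8 were lower and 3 higher, beside 28.2% and 18.2% of all genes. Ifitm1, a membrane protein that hinders virus entry, had 217 to 5763 CPM in high-Mcm cells (median 1310.0), 686 to 4891 in middle cells (median 2603) and 653 to 7624 in low-Mcm cells (median 2806). The ratio was -1.19 (-1.33 to -1.06), and -0.38 without the 5 cells, which lay between 575 and 1567 CPM. Ifitm3 stood at -0.60 and -0.22.

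One high-Mcm cell, the third-ranked, carried transcripts of mature neutrophils and red cells. The 9 measured genes of 12 listed neutrophil granule and surface genes were at least 2-fold higher in high-Mcm cells, beside 22.0% of all genes. That cell held 764 of the 806 high-Mcm counts of the list, so the count of 9 leans on it. Without the 5 cells 1 of the 9 was higher and 1 lower. Of Camp, a granule peptide gene, 577 of 588 counts lay in the third-ranked cell. Its summed neutrophil level was 21462 CPM, and that of any other high-Mcm cell at most 292 CPM, of any low-Mcm cell at most 319.9. The same cell held all 49 high-Mcm counts of Hba-a2, an alpha-globin gene with a near-identical copy, and 38 of 44 of Tfrc, the transferrin receptor, and its erythroid level was 10029 CPM. Its B cell level was 1348 CPM, from 48 of the 88 high-Mcm counts of that list. Its lymphoid progenitor level was 1124 CPM and its macrophage and dendritic level 309. Other high-Mcm cells had at most 597, 1096 and 275 CPM of these 3 lists, and low-Mcm cells at most 440, 1659 and 448. The third-ranked cell had the most genes with a count of the 43 cells, 6769 at 35597 counts. Doublets were not called. Without this cell the joint median of licensing and fork genes was 2.51, beside 2.45 with it.

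Markers of other cell types were otherwise sparse. None of 11 mast cell, basophil and eosinophil genes had a count in high-Mcm or low-Mcm cells. In high-Mcm cells 6 of 12 macrophage and dendritic, 12 of 16 T and NK cell, 9 of 16 B cell and 9 of 15 endothelial and stromal genes were at 0, and in low-Mcm cells 11, 14, 11 and 12. Lymphoid progenitor genes were lower in high-Mcm than in low-Mcm cells, 5 of 7 measured genes at least 2-fold, beside 25.3% of all genes. Sox4 had 7 against 59 counts, and Dntt was on the other side at 44 against 1. The summed level of the list was 261 CPM against 614, and 190 in middle cells, so high-Mcm cells were not the lowest group. Low-Mcm cells ran from 0 to 1659 CPM. The part of these genes in the stem cell results was not tested. Of 19 myeloid progenitor genes 9 were measured, 3 at least 2-fold lower and 1 higher, among them Spi1, a master factor of myeloid cells, at 38 against 137 counts. Elane, Ctsg and Ms4a3, granule genes of committed progenitors, were at 0 in both groups. The share of counts from mitochondrially encoded genes, of which mt-Co2, mt-Co3, mt-Atp6, mt-Atp8 and mt-Nd4l were listed at 0, was 2.41% to 4.14% in high-Mcm and 2.40% to 5.22% in low-Mcm cells.

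The same ranking was made within each other gate, as 1 sample each and without a test of any difference. In mAG+ cells of the same library, whose 15 top-ranked cells were set against 15 at the bottom, 51 of 73 measured licensing and fork genes were at least 2-fold higher, beside 19.4% of all measured genes, and in mKO2neg cells 52 of 64. Their medians were 1.26 and 2.45. The G2 and mitosis genes had a median of -0.52 in mAG+ cells. Of 72, 3 were at least 2-fold higher, beside 19.4% of all measured mAG+ genes. The 17 lower were 23.6% of the list, near the 21.6% of all measured mAG+ genes. In mKO2neg cells their median was 1.86 in summed counts. Over the same genes it was 0.07 with every cell weighing alike and -0.23 without the high-Mcm cells that held all ranking genes. The mKO2neg median rested largely on those cells, so no opposite direction between the gates is read from it. The summed level of these genes was 8645 to 45203 CPM per mAG+ cell (median 24069) and 634 to 28525 per mKO2neg cell (median 1382), so only the low-Mcm cell described above and the 2 high-ranked cells reached the mAG+ range.

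In the other library, licensing and fork genes had a median of 1.62 in mKO2low cells, 44 of 66 at least 2-fold higher beside 22.5% of all measured genes and 2 lower beside 19.9%, and of 0.28 in mKO2high cells, 14 of 38 beside 22.6% and 8 lower beside 26.7%. For these cells gate and library cannot be told apart. The top-ranked mKO2high cells had 576 to 1658 CPM of the 7 genes (median 794), those of mKO2low 697 to 3571 (median 1452) and those of mAG+ 1688 to 3342 (median 2528). Cdt1 stood at 7.34 in mAG+ and 5.74 in mKO2low cells, beside 4.42 in mKO2neg and -0.77 in mKO2high cells. Eif6 stood at 1.08, 1.02 and, in mKO2high, -0.15.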

How the data were processed

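Single-cell RNA-seq was made by a modified Smart-seq2 method that enriches the 3′ ends of transcripts, per the labels' protocols. The deposited values are raw counts per gene and cell, made by the authors with HISAT2 and HTSeq 0.11.3 on mm10, and the notes also name Seurat, per the submitters' processing notes. The annotation release and the counting strand are not given in sources used here, so overlapping and antisense genes cannot be separated, and no molecular identifiers are named. Of 53378 deposited rows, 53273 were found in GENCODE M21 and 105, with 0.222% of counts, were not. Each gene was read 1 row back because of the displaced labels.

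Cells of at least 5000 counts were ranked, which left out 5 mKO2neg cells. Counts were summed over each group of cells and divided by the group's total. The log2 ratio had a prior count of 1 added to each sum, and genes needed 10 counts over both groups. Since both groups are cells of 1 sample, no test was made. CPM and ratios have exact Poisson or conditional binomial 95% intervals, for counting error only. Medians over cells, folds at a floor of 3 counts, and cells thinned to 5000 counts (seed 1) were computed with Python 3.11.15, numpy 2.4.6, pandas 2.3.3 and scipy 1.17.1. Scaling factors of edgeR 4.0.16 (TMM) and DESeq2 1.42.0 served as alternatives. The single genes named are the 7 ranking genes, members of the gene lists and the 15 largest ratios in each direction described in the text. The members and lists were chosen with earlier results of these data known. The scripts were tested on simulated data.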

Additional observations from a re-analysis of the deposited data

Results flagged for a closer look

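The same ranking gave median log2 ratios of opposite sign in another gate for 5 gene lists, each gate being 1 sample, and the difference was not tested for any of them. In mAG+ cells the cyclins and cyclin-dependent kinases had a median of -0.65, beside 1.34 in mKO2neg cells, and the G2 and mitosis genes had -0.52, beside 1.86. In mKO2high cells, from the other library, the immediate early genes had 0.51, beside -0.56 in mKO2neg, and the interferon response genes had 0.51, beside -0.71. In mKO2low cells, also from the other library, the replication-dependent histone genes had -1.67, beside 0.93 in mKO2neg. These mKO2neg medians moved when the 5 high-Mcm cells with all ranking genes were left out. Over the same genes they were then -0.14, -0.23, 0.30, -0.30 and -0.26, in the order given here. Only the interferon response median then had a sign opposite to that in the other gate.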

How the results depend on the processing

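Of 8508 measured genes 1872 were at least 2-fold higher and 2153 lower in high-Mcm cells. Cells thinned to 5000 counts gave 369 and 426, or 373 and 446 when also ranked again, and fewer genes were then measured. A filter of 1 count gave 3135 and 3599, of 50 counts 681 and 610, and a 3-fold limit 1227 and 1328. Leaving out the 5 high-Mcm cells with all ranking genes gave 1220 higher, and leaving out the largest cell of each gene gave 1383 lower. The licensing and fork genes at least 2-fold higher, 52 in all, numbered 9 thinned, 8 thinned and ranked again, 32 at 50 counts, 4 in the rows of their own labels, 14 in mKO2high and 13 without the 5 cells. The 37 G2 and mitosis genes at least 2-fold higher became 15 by the mean of per-cell CPM, 2 thinned, 1 thinned and ranked again, 16 without the deepest cells, 21 without the largest cell, 6 in the rows of their own labels, 3 in mAG+, 18 in mKO2low, 7 in mKO2high and 5 without the 5 cells. The 19 stem cell factor and surface genes at least 2-fold lower became 8 thinned, 6 thinned and ranked again, 11 at 50 counts, 5 in the rows of their own labels and 10 without the 5 cells. Counts of these 5 kinds stayed within 1.5 times in the other 82 values, TMM and DESeq2 scaling among them.

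Of 482 alternative values for 105 single genes, 15 had the opposite sign among genes past 2-fold, and 29 more, over 10 genes, among those within 2-fold, Ccnb2, Hlf, Cdkn2d and Ccnd2 among them. Of the 15, those without the 5 cells were Mcm5 (-1.67), Tk1 (-1.55), Rrm2 (-3.44), Dut (-0.88), Ccna2 (-1.55), Mki67 (-0.70), Top2a (-0.039), Tpx2 (-3.61) and S100a8 (-2.31). Without the deepest cell of each group they were Rrm2 (-0.37), Cdkn1c (-0.40) and Tpx2 (-1.34), thinned Cdkn1c (-1.0), and by the mean of per-cell CPM Mki67 (-0.082) and Tpx2 (-0.84). The alternatives that left out the 5 cells, the third-ranked high-Mcm cell or the low-Mcm cell richest in mitosis genes were chosen after seeing the data. No paired analysis was possible because each gate is 1 sample and no test was made. At these depths a gene absent from a cell was not detectable in it rather than shown to be off, and with 1 sample per gate the spread between animals is unknown.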
